A study of Mus musculus with 18 samples.

Results

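Polysome RNA was set against monosome RNA in LPS-stimulated mouse bone marrow-derived macrophages labelled as Mkrn2 knockout, in 6 of the 18 mRNA-seq libraries of the study. The members are the libraries whose labels give the Mkrn2 knockout genotype and the polysome or the monosome fraction, 3 of each. The other 12 libraries hold the total RNA of both genotypes and the polysome and monosome RNA of wild-type (WT) cells. Every group was grown from bone marrow for 6 days in 20 ng/ml recombinant macrophage colony-stimulating factor and then given LPS, a bacterial cell wall component that activates macrophages, at 100 ng/ml for 8 h. Lysates were separated by polysome profiling, and libraries were made from the mRNA of each fraction with a SMARTer kit. The labels do not say how the knockout was made, which part of Mkrn2 it removes, or whether replicates came from separate mice or cultures, so p-values measure the spread between these libraries only. Sequencing depth was 13006294 to 15759370 gene counts in the polysome libraries and 11996563 to 12606314 in the monosome libraries.

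Polysome profiling sorts mRNAs on a density gradient by how many ribosomes they carry. An mRNA engaged by a single ribosome sediments with the monosome, one that is read by several ribosomes at once sediments in the polysomes, and a long coding sequence has room for more ribosomes than a short one. Some mRNA families are held out of polysomes under particular conditions. mRNAs of ribosomal proteins and translation factors often start with a 5′ terminal oligopyrimidine (TOP) run, a cytosine followed by further pyrimidines, through which the mTOR pathway acts. Ferritin mRNAs carry an iron-responsive element (IRE) in the 5′ untranslated region, a hairpin that iron regulatory proteins bind when iron is scarce. Mkrn2 encodes a makorin RING finger ubiquitin ligase with CCCH zinc fingers, a type of RNA-binding domain.

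The transcript starts below belong to ribosomal protein genes. They are shown because this family was lower as a block in polysome than in monosome libraries. They are 7 of the 8 lowest by polysome-to-monosome ratio among the genes eligible for display. Eligible were listed ribosomal protein and other TOP genes with an annotated start of at least 6 pyrimidines (C first). Genes whose displayed bases crossed an exon junction, or that lay on a chromosome not used for display, were not eligible. Each gene is shown by its annotated coding transcript with the longest such run. They were read from GENCODE M21 transcripts (GRCm38), 5′ to 3′, with the opening pyrimidine run in capitals.
Rps24: CTCTTTTCCTCCTCTCCagctccg
Rpl32: CTTCCTTCTTCCTCggcgctgcct
Rpl29: CTCTTCCggtctccggcgctgcgg
Rps15a: CTTTCCacagccaccatggtgcga
Rps2: CTTCTTCTTCTTCgggagaacacg
Rpl30: CCTTTCTCgctccccggccatctt
Rps25: CCTTTTTTTCCgacatcttagcga
These lie, in the same order, at chr14:24490718-24490741 (plus strand), chr6:115808724-115808747 (minus), chr9:106429538-106429561 (plus), chr7:118115233-118115256 (minus), chr17:24720110-24720133 (plus), chr15:34443199-34443222 (minus) and chr9:44407695-44407718 (plus). The next pair are the IRE loops of the ferritin 5′ untranslated regions, shown because both ferritin mRNAs were far lower in polysomes than in monosomes, with the 17-base stretch CTTCAACAGTGNTTGAA in capitals. This stretch is where both ferritin loops agree, with N at the base that differs.
Fth1: cctgCTTCAACAGTGCTTGAAcgg
Ftl1: cttgCTTCAACAGTGTTTGAAcgg
The Fth1 stretch lies at chr19:9982734-9982757 on the plus strand and the Ftl1 stretch at chr7:45459782-45459805 on the minus strand. Searched on the sense strand of the annotated 5′ untranslated regions of 11642 tested coding genes, the capital stretch was found in 3 genes, which is 0.0258% of them: Fth1, Ftl1 and Gm10116. The stretch was taken from Fth1 and Ftl1, so their matches were fixed in advance. IREs with other letters were not searched for, so the share does not give how common IREs are. Gm10116 was named after its values were seen.

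The targeted gene was still present as RNA in the libraries labelled knockout. Mkrn2 (GRCm38, chr6:115601902-115622624, plus strand) had 86.5, 90.4 and 80 CPM in KO-labelled polysome libraries, 63.4, 75 and 68 CPM in KO-labelled monosome libraries and 53.7, 57 and 60.6 CPM in KO-labelled total libraries. In WT libraries it had 97.1, 89 and 99.2 CPM in polysomes and 85.3, 91.2 and 91.1 CPM in monosomes. The polysome ranges of the 2 genotypes overlap and the monosome ranges do not, with KO-labelled monosomes lower. Loss of the protein cannot be read from these counts, so the libraries are called KO-labelled here. CPM, the usual depth-scaled count, is given throughout on library sizes scaled by TMM, a normalisation that sets the bulk of genes level between libraries. Across the KO-labelled libraries Mkrn2 itself was higher in polysomes than in monosomes (log2 difference 0.32 ± 0.08 (SE), adjusted p = 0.00361), while Mkrn1, its paralogue, was lower, with 163, 156 and 150.1 CPM in polysome libraries, against 237, 260.1 and 277 CPM in monosome libraries (log2 difference -0.72 ± 0.06 (SE), adjusted p = 1.02e-07).

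Macrophage markers were high in every one of the 6 libraries, with a summed level of 11251 to 11885 CPM in polysome libraries and 15002 to 16582 CPM in monosome libraries over 13 genes. Markers of other cell types were far lower. Stromal markers summed to 227 to 248 CPM in polysomes and 452 to 483 CPM in monosomes over 11 genes, and neutrophil markers to 4.39 to 5.33 CPM in polysomes and 13.03 to 15.6 CPM in monosomes over 8 genes, with Retnlg and Cxcr2 at 0 in all 6 libraries. The part of these cells in the results was not tested, and in bulk libraries fewer cells of a type and less RNA per cell cannot be told apart. KO-labelled monosome replicate 3 stood apart from the other monosome libraries on the second principal component (-44.55, against 29.75 and 13.41), which held 11.9% of the variance. The first component held 65.2% and separated the fractions.

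Fraction divided the transcriptome broadly. Of 12782 tested genes, 7425 (58.1%) differed between KO-labelled polysome and monosome RNA at an adjusted p under 0.05, by edgeR's quasi-likelihood test on all 18 libraries with Benjamini-Hochberg adjustment, which also gives every adjusted p below. In polysomes 3656 genes (28.6%) were higher and 3769 (29.5%) were lower. The difference was at least 2-fold in 1485 of the higher and 1609 of the lower genes, and at least 4-fold in 211 and 317. The direction is relative to the median gene: with library size alone as the scale, the median of all genes moved from 0.03 to 1.04 on the log2 scale, and 9237 genes were higher and 786 lower. A negative log2 difference, or list median, smaller in size than this shift changes sign on that scale. A ratio compares shares within the libraries of each fraction, not amounts of RNA in the gradient. Unless stated otherwise, higher, lower, rose and fell compare polysomes with monosomes, not with total RNA. The 3 libraries of one fraction lay outside the range of the other for 8122 genes (63.5%). Without KO-labelled monosome replicate 3, 3403 were higher and 3602 lower.

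**Figure D1:**
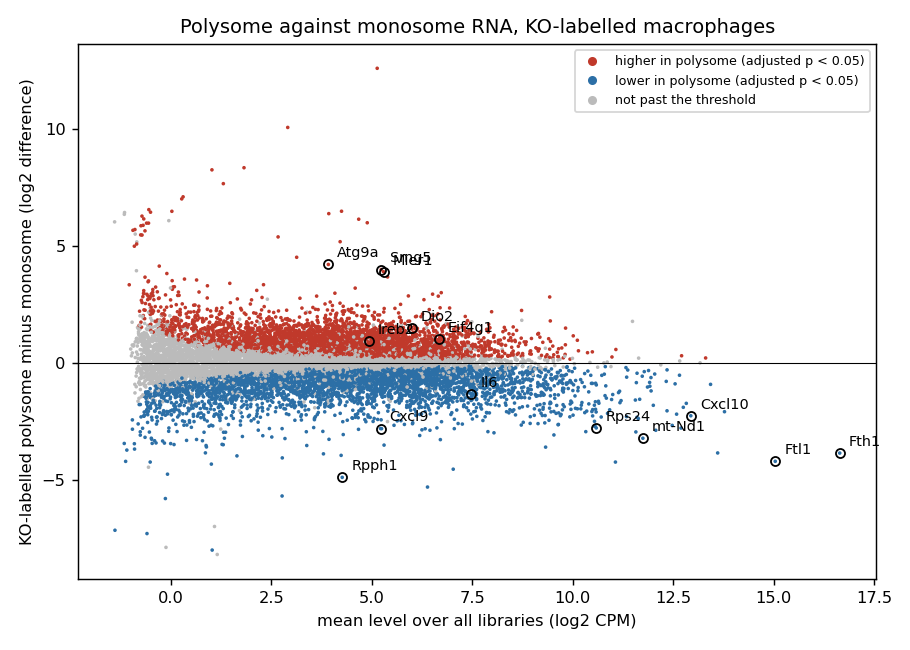
Each point is one of 12782 tested genes, with its mean level over all libraries in log2 CPM across and its log2 difference, KO-labelled polysome minus monosome, up. Red genes were higher and blue genes lower in polysomes at an adjusted p under 0.05, and the ferritin genes Fth1 and Ftl1, at the right edge, stood at -3.86 and -4.22.

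Longer coding sequences went with a higher polysome-to-monosome ratio. Coding genes under 100 codons had a median log2 difference of -0.65 (265 genes), with 9.81% higher and 61.5% lower. The median was -0.51 from 100 to under 200 codons (1333 genes), -0.24 from 200 to under 400 (3432 genes), 0.17 from 400 to under 800 (4254 genes) and 0.51 from 800 to under 1600 (1876 genes). At 1600 codons and over it was 0.48 (510 genes), with 47.8% higher and 9.22% lower, no higher than the class before it. WT libraries gave -0.54 in the shortest and 0.47 in the longest class. The gap between the longest and shortest class was 1.13 in KO-labelled libraries, and leaving out the ribosomal protein genes left the shortest class at -0.64. Across 11670 coding genes, which are not independent replicates, Spearman's rho between codons and the log2 difference was 0.41. Relative to KO-labelled total RNA, the median log2 difference fell with coding length in both fractions. From the shortest to the longest class it went from 0.63 to -0.51 in polysomes and from 1.3 to -1.01 in monosomes. The higher ratio of long coding sequences is thus relative to monosomes, not to total RNA.

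**Figure D2:**
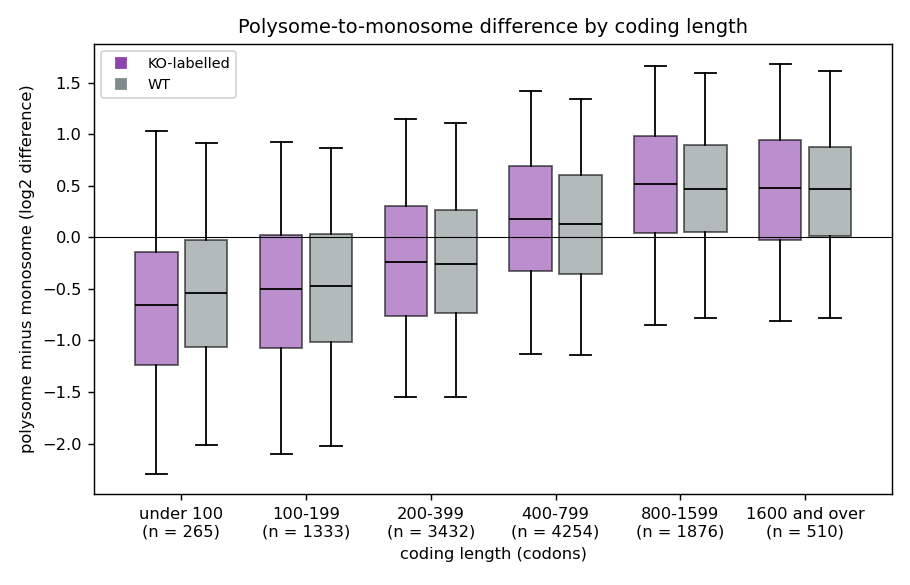
Box plots give the polysome minus monosome log2 difference of coding genes by coding length in codons, KO-labelled left of WT, with the box from the first to the third quartile, a line at the median and whiskers from the 5th to the 95th percentile of genes. Medians climb from -0.65 under 100 codons to 0.51 from 800 to under 1600 codons in KO-labelled libraries.

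Lists chosen by size hold genes already counted in the length classes, so their order adds no separate evidence for the length trend. Of all tested genes, 28.6% were higher and 29.5% lower. Among small proteins of the list of short open reading frames, 8 of 93 measured members rose, 55 fell and 30 did not pass, with a median log2 difference of -0.52; Tma7, a short protein linked to translation machinery, fell with 87.3, 88.8 and 95.3 CPM in polysome libraries, against 398, 349 and 398 CPM in monosome libraries (log2 difference -2.08 ± 0.13 (SE), adjusted p = 2.47e-09). Timm10, a chaperone of mitochondrial import, went the other way at 0.97 ± 0.18 (adjusted p = 2.49e-04). Among giant proteins, 38 of 74 measured members rose, 9 fell and 27 did not pass, with a median log2 difference of 0.45. Lyst, the lysosomal trafficking regulator, had 18.7, 16.2 and 22.4 CPM in polysome libraries, against 4.76, 3.91 and 3.2 CPM in monosome libraries (log2 difference 2.27 ± 0.24 (SE), adjusted p = 8.31e-07). Lrp1, an endocytic receptor, was higher at 0.73 ± 0.09 (adjusted p = 6.73e-06) and Itpr2, an endoplasmic reticulum calcium channel, was lower at -0.98 ± 0.13 (adjusted p = 7.05e-06), so both directions occurred among long genes.

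Coding GC content also went with the ratio. In 5 equal groups of coding genes, from the lowest to the highest coding GC, the median log2 difference was -0.25, -0.07, 0.04, 0.17 and 0.30, with median GC of 44.2%, 49.1%, 52.8%, 56.2% and 60.3%. Within each of the 6 length classes the third of genes with the highest GC had a higher median than the third with the lowest, for instance 0.45 against -0.10 from 400 to under 800 codons. GC and coding length were nearly unrelated (Spearman's rho -0.07).

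Ribosomal protein mRNAs were lower in polysomes than in monosomes almost without exception. Of all tested genes, 28.6% were higher and 29.5% lower. Of large-subunit genes, 0 of 47 measured members rose, 42 fell and 5 did not pass, with a median log2 difference of -1.54. The 5 that did not pass were Rpl3, Rpl9, Rpl11, Rpl27 and Rpl27a. Of small-subunit genes, 0 of 31 measured members rose, 30 fell and 1 did not pass, with a median log2 difference of -1.76; Rps13 was the one that did not. Rplp1, a P-stalk protein that recruits elongation factors, had 982, 1079 and 878 CPM in polysome libraries, against 7404, 7949.6 and 7546 CPM in monosome libraries. All 3 polysome libraries lay below all 3 monosome libraries (log2 difference -2.96 ± 0.11 (SE), adjusted p = 2.19e-11). Rps24, whose start opens the sequences above, had 563, 569 and 488 CPM in polysome libraries, against 3632, 3924 and 3654 CPM in monosome libraries (log2 difference -2.79 ± 0.11 (SE), adjusted p = 3.11e-11). Its polysome and monosome ranges did not overlap. Rps2 had 479, 502 and 496 CPM in polysome libraries, against 1983, 1949 and 1963 CPM in monosome libraries (log2 difference -1.997 ± 0.11 (SE), adjusted p = 4.35e-10). Rps19, a small-subunit protein, and Rplp0, the base of the P-stalk, fell by 2.26 and 2.31 on the log2 scale. As shares of all counts, ribosomal protein genes were 2.38% ± 0.111 of polysome libraries and 4.29% ± 0.368 of monosome libraries (SD, n = 3 each; exact permutation test, two-sided, p = 0.1, the smallest that 3 against 3 can give). KO-labelled total RNA libraries held 1.59% ± 0.0457 (SD, n = 3), a smaller share than either fraction. Set against that total RNA, Rplp1 had log2 differences of 0.76 ± 0.11 (SE) in polysomes and 3.73 ± 0.12 in monosomes. The lower level of this family in polysomes is thus relative to monosomes, not to total RNA. Near-identical pseudogenes of this family can take or lend reads, so single members are less certain than the block.

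Other TOP mRNAs were mostly lower. Among them 3 of 22 measured members rose, 18 fell and 1 did not pass, with a median log2 difference of -0.92. The shares of all tested genes were 28.6% higher and 29.5% lower. Tpt1, a translationally controlled tumour protein, had 143, 149 and 142 CPM in polysome libraries, against 926, 865 and 967 CPM in monosome libraries (log2 difference -2.67 ± 0.07 (SE), adjusted p = 1.07e-12). Naca, the nascent-chain chaperone, and Vim, vimentin, were lower at -1.45 ± 0.08 and -1.20 ± 0.07. The 3 that rose were Eif4b, a helicase cofactor of initiation, with 145, 147 and 157 CPM in polysome libraries, against 60.9, 60.3 and 70.2 CPM in monosome libraries (log2 difference 1.23 ± 0.09 (SE), adjusted p = 1.09e-08), Eef2, the translocation factor, at 1.15 ± 0.11 (adjusted p = 4.16e-07), and Ncl, nucleolin, at 0.59 ± 0.11 (adjusted p = 2.75e-04). These 3 had no annotated start with 6 or more pyrimidines, as was the case for 14 of the 21 listed genes with an annotated coding transcript, Tpt1 among them. Such a start was annotated in 21 of 78 ribosomal protein genes (26.9%), 7 of 21 other TOP genes (33.3%) and 336 of 11543 other tested coding genes (2.91%). Ribosomal protein genes with it had a median log2 difference of -1.57 and those without it -1.67, other TOP genes had -0.89 with it and -0.88 without, and other coding genes had -0.02 with it and 0.05 without. Annotated starts can miss the start used in these cells, and no match says only that the letters are not there.

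Both ferritin mRNAs were far lower in polysomes. Fth1, the ferritin heavy chain that oxidises and stores iron, had 16987, 19585 and 19584 CPM in polysome libraries, against 241110.2, 278037 and 298676 CPM in monosome libraries. Monosome levels were 14.6-fold those of polysomes, with no overlap (log2 difference -3.86 ± 0.16 (SE), adjusted p = 4.59e-11). It took 2.34% ± 0.201 of polysome counts, 16.9% ± 1.65 of monosome counts and 2.70% ± 0.170 of total RNA counts (SD, n = 3 each). Set against KO-labelled total RNA, the log2 difference was -0.19 ± 0.14 (SE) in polysomes and 3.67 ± 0.16 in monosomes, which share that total. Ftl1, the light chain, had 4010.4, 8348 and 4264 CPM in polysome libraries, against 118574, 133479 and 56920.4 CPM in monosome libraries (log2 difference -4.22 ± 0.44 (SE), adjusted p = 6.90e-07). Monosome replicate 3 was the lowest of its fraction but still above every polysome library. Gm10116, which carries the same IRE stretch and may share reads with a ferritin gene, fell by 3.86 on the log2 scale. Of all tested genes, 28.6% were higher and 29.5% lower. Of the wider iron list, 5 of 22 measured members rose (22.7%), 10 fell (45.5%) and 7 did not pass, with a median log2 difference of -0.04. The 5 that rose were Ireb2, Slc11a2, Hfe, Slc25a37 and Epas1. Ireb2 encodes iron regulatory protein 2 and had 35, 32.2 and 36.5 CPM in polysome libraries, against 18.8, 16.1 and 20.4 CPM in monosome libraries (log2 difference 0.91 ± 0.13 (SE), adjusted p = 1.82e-05). Hfe, a regulator of iron uptake, had 8.79, 8.93 and 8.19 CPM in polysome libraries, against 4.23, 3.91 and 3.07 CPM in monosome libraries (log2 difference 1.21 ± 0.15 (SE), adjusted p = 5.77e-06). Pcbp2, an RNA-binding protein that also delivers iron to ferritin, fell to 266, 272 and 280.0 CPM in polysomes, against 676, 780.0 and 832 CPM in monosomes.

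**Figure D3:**
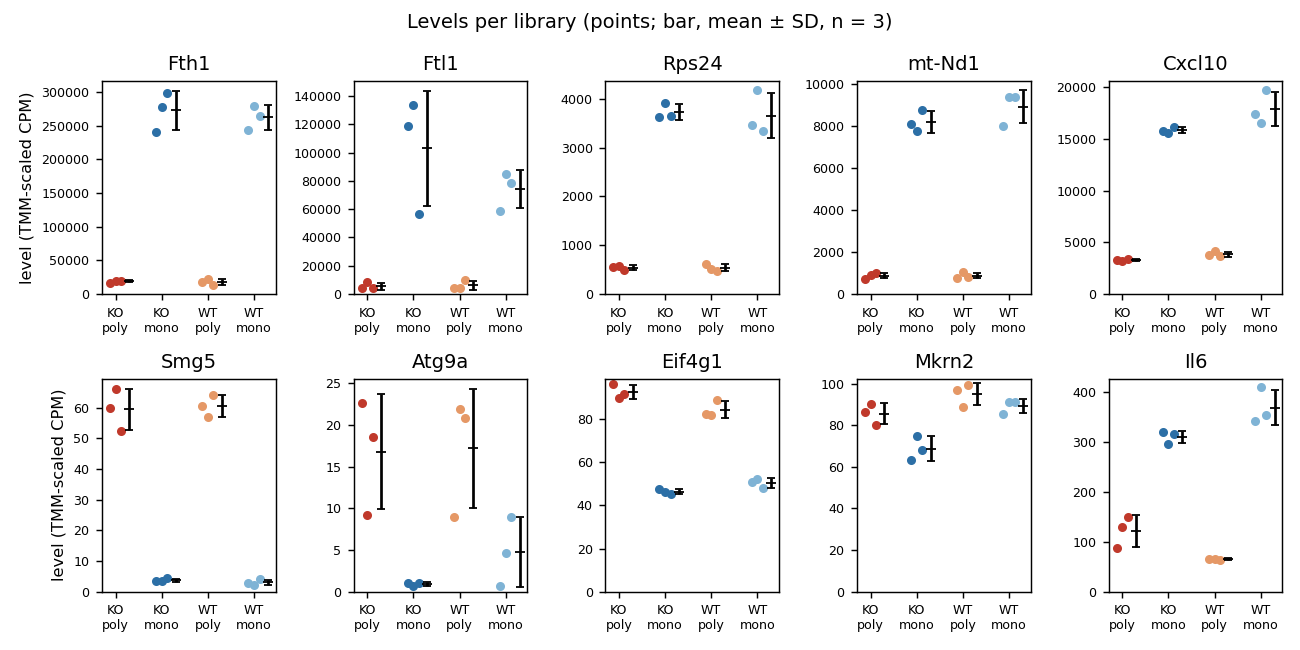
Points are the TMM-scaled CPM of single libraries for 10 genes, KO-labelled before WT and polysome left of monosome, with the mean and SD of 3 libraries beside them. Fth1, Ftl1, Rps24, mt-Nd1 and Cxcl10 are lower in polysomes than in monosomes, and Smg5, Atg9a and Eif4g1 are higher. The KO-labelled Il6 monosome values (296 to 319 CPM) lie above every KO-labelled polysome value. Total RNA is not drawn.

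Mitochondrially encoded mRNAs, which are translated inside the organelle by its own ribosomes, were all lower in the polysome libraries. Of 13 measured, 13 fell and the median log2 difference was -2.09. mt-Nd1, a complex I subunit, had 729, 910.1 and 976 CPM in polysome libraries, against 8085, 7728 and 8743 CPM in monosome libraries (log2 difference -3.23 ± 0.16 (SE), adjusted p = 2.11e-10). mt-Co1, the core subunit of cytochrome oxidase, had 4718, 6195 and 7572 CPM in polysome libraries, against 27115, 25643 and 26337 CPM in monosome libraries (log2 difference -2.10 ± 0.18 (SE), adjusted p = 6.72e-08). mt-Atp6 had 259, 316 and 334 CPM in polysome libraries, against 7715, 1646 and 7929.6 CPM in monosome libraries. Its monosome replicate 2 was far below the other 2 and still above the polysome libraries (log2 difference -4.25 ± 0.59 (SE), adjusted p = 1.55e-05), and it overlaps mt-Atp8. Together these mRNAs made up 1.78% ± 0.290 of polysome counts and 3.89% ± 0.436 of monosome counts (SD, n = 3 each). The mRNAs of nuclear-encoded mitochondrial proteins leaned the same way. The respiratory chain and mitochondrial ribosome lists have median coding lengths of 143 and 192 codons. Coding genes of 100 to under 200 codons had a median log2 difference of -0.51, with 55.0% lower. Of all tested genes, 28.6% were higher and 29.5% lower. Whether these lists differ from other genes of such length was not tested. Of the respiratory chain list, 5 of 77 measured members rose, 51 fell and 21 did not pass, with a median log2 difference of -0.58; Ndufc2, a complex I subunit, had 64.3, 58 and 61.9 CPM in polysome libraries, against 255, 264 and 293 CPM in monosome libraries (log2 difference -2.14 ± 0.10 (SE), adjusted p = 1.28e-10), and the 5 that rose were Ndufa4, Ndufa13, Ndufv1, Atp5b and Atp5g3. Of mitochondrial ribosome genes, 5 of 77 measured members rose, 57 fell and 15 did not pass, with a median log2 difference of -0.62; Mrpl42 had 21, 19 and 20.9 CPM in polysome libraries, against 181, 176 and 171 CPM in monosome libraries (log2 difference -3.11 ± 0.09 (SE), adjusted p = 1.07e-12) and Mrpl35 26.9, 27.5 and 26.7 CPM in polysome libraries, against 191, 195 and 190.3 CPM in monosome libraries, and Mrpl9, Mrpl12, Mrpl44, Mrps27 and Mrps35 rose. Cycs, cytochrome c, fell by 2.34 on the log2 scale.

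Noncoding RNAs without a long reading frame were mostly lower in polysomes, and the strongest were parts of ribonucleoprotein enzymes. Among the list, 4 of 27 measured members rose, 17 fell and 6 did not pass, with a median log2 difference of -0.75. The shares of all tested genes were 28.6% higher and 29.5% lower. Rmrp, the RNA of RNase MRP, had 0.465, 0.496 and 0.599 CPM in polysome libraries, against 21.3, 24.9 and 36.5 CPM in monosome libraries (log2 difference -5.70 ± 0.38 (SE), adjusted p = 5.38e-09). Rpph1, the RNA of RNase P, had 2.02, 1.98 and 2.55 CPM in polysome libraries, against 49.8, 64.7 and 82.6 CPM in monosome libraries (log2 difference -4.90 ± 0.37 (SE), adjusted p = 2.21e-08). The fractions did not overlap for either. Tug1, Malat1, Neat1 and Snhg14 rose, and Malat1, a nuclear-retained RNA, had 191, 199.3 and 188 CPM in polysome libraries, against 70.5, 90.5 and 78.2 CPM in monosome libraries (log2 difference 1.27 ± 0.26 (SE), adjusted p = 5.38e-04). Epb41l4aos fell by 1.71 on the log2 scale. Short structured RNAs can be poorly captured in mRNA libraries, and strand use in counting is not given in the sources used here, so RNAs overlapping genes on the other strand (Rmrp and Ccdc107, Tug1 and Morc2a) cannot be told apart from them. The list held 34 genes in the table and its share of counts was 0.0863% ± 0.00804 of polysome counts and 0.0496% ± 0.00231 of monosome counts (SD, n = 3 each). These shares are not TMM-scaled. They were higher in polysomes, the opposite direction to most members of the list.

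Chemokines were mostly lower in polysomes. Of 21 measured, 20 fell, against 29.5% of all tested genes, and Pf4, chosen here after its value was seen, rose, with a list median of -1.46 and a median length of 100 codons. Cxcl10, an interferon-inducible T cell attractant, had 3251, 3225 and 3376 CPM in polysome libraries, against 15777, 15595 and 16151 CPM in monosome libraries (log2 difference -2.27 ± 0.10 (SE), adjusted p = 4.90e-11). Cxcl9 had 12.6, 11.3 and 12.7 CPM in polysome libraries, against 92.5, 81.2 and 84.4 CPM in monosome libraries (log2 difference -2.81 ± 0.15 (SE), adjusted p = 4.39e-10). Ccl6 and Ccl9, myeloid chemokines, had log2 differences of -2.71 ± 0.10 and -2.34 ± 0.09. All of these separated fully by fraction. Art3, an ecto-ADP-ribosyltransferase gene that overlaps Cxcl10 and Cxcl11 on the other strand, had 231, 244 and 186 CPM in polysome libraries, against 1804, 1769 and 2057 CPM in monosome libraries, and reads of these genes cannot be told apart without strand. Among cytokines, 2 of 29 measured members rose, 22 fell and 5 did not pass, with a median log2 difference of -0.64; Lif and Inhba were the 2 that rose. Il1a had 1495, 1513 and 1333 CPM in polysome libraries, against 7128, 8544 and 7035 CPM in monosome libraries (log2 difference -2.39 ± 0.09 (SE), adjusted p = 2.21e-11). Il1b, the inflammasome-processed cytokine, had 395, 423 and 337 CPM in polysome libraries, against 1514, 1809.8 and 1576 CPM in monosome libraries (log2 difference -2.08 ± 0.11 (SE), adjusted p = 4.62e-10). Il15 fell by 1.22 on the log2 scale. Il6, an acute-phase and fever cytokine, had 86.6, 129 and 150.1 CPM in polysome libraries, against 319, 296 and 314 CPM in monosome libraries (log2 difference -1.34 ± 0.15 (SE), adjusted p = 1.94e-06). Its 3 polysome libraries spread from 86.6 to 150 CPM, and all lay under the monosome libraries. With library size alone as the scale the Il6 difference was -0.33 (adjusted p = 0.0565). Tnf had 2845, 2709 and 2392 CPM in polysome libraries, against 4919, 5126 and 4328 CPM in monosome libraries (log2 difference -0.86 ± 0.09 (SE), adjusted p = 1.41e-06).

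Immune regulators are given beside the 28.6% higher and 29.5% lower among all tested genes. Of genes that feed back on Toll-like receptor signalling, 11 of 31 measured members rose, 14 fell and 6 did not pass, with a median log2 difference of 0.01. Socs3, a cytokine signalling inhibitor, had 393, 306 and 330.0 CPM in polysome libraries, against 182, 163 and 187 CPM in monosome libraries (log2 difference 0.95 ± 0.10 (SE), adjusted p = 1.08e-06). Dusp16, a kinase phosphatase, and Rc3h1, the mRNA-decay factor Roquin, were higher at 1.28 ± 0.14 and 1.18 ± 0.16. Tnip3, an inhibitor of NF-kB activation, and Zfp36, which destabilises cytokine mRNAs, were lower at -1.82 ± 0.09 and -1.22 ± 0.08. Of interferon-stimulated genes, 8 of 45 measured members rose, 24 fell and 13 did not pass, with a median log2 difference of -0.38. Adar, the double-stranded RNA editor, had 222, 207 and 209 CPM in polysome libraries, against 92.9, 90 and 83.1 CPM in monosome libraries (log2 difference 1.26 ± 0.07 (SE), adjusted p = 9.29e-10), and Irf1 was higher at 0.69 ± 0.08. Xaf1 had 371, 326 and 341 CPM in polysome libraries, against 1294, 1367 and 1335 CPM in monosome libraries (log2 difference -1.95 ± 0.08 (SE), adjusted p = 4.14e-11), and Irgm1 and Gbp2, interferon-inducible GTPases, fell by 1.65 and 1.22 on the log2 scale. Of antigen presentation genes, 8 of 25 measured members rose, 7 fell and 10 did not pass, with a median log2 difference of 0.07, shares close to those of all genes. Tap2, a peptide transporter subunit, had 343, 358 and 341 CPM in polysome libraries, against 169, 168 and 202 CPM in monosome libraries (log2 difference 0.95 ± 0.08 (SE), adjusted p = 9.01e-08), whereas B2m, the MHC class I light chain, had 2736, 2678 and 2613 CPM in polysome libraries, against 13842, 11691 and 11395 CPM in monosome libraries (log2 difference -2.20 ± 0.12 (SE), adjusted p = 9.29e-10). Macrophage effector genes gave a count of 4 that rose and 14 that fell of 27. Mmp14, a membrane metalloprotease, had 633, 584 and 624 CPM in polysome libraries, against 239.9, 244 and 308 CPM in monosome libraries (log2 difference 1.22 ± 0.09 (SE), adjusted p = 1.41e-08) and Saa3, an acute-phase protein, had 1159, 928 and 800.3 CPM in polysome libraries, against 4738, 4209.9 and 4043 CPM in monosome libraries (log2 difference -2.17 ± 0.14 (SE), adjusted p = 3.66e-09).

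Other cell-wide lists are given beside the 28.6% higher and 29.5% lower among all tested genes. In the lysosome list, 8 of 44 measured members rose, 27 fell and 9 did not pass, with a median log2 difference of -0.44. Ctsc, cathepsin C, and Atp6v0d2, a proton pump subunit, were lower at -1.75 ± 0.11 and -1.36 ± 0.07. In the proteasome list, 6 of 38 measured members rose, 21 fell and 11 did not pass, with a median log2 difference of -0.27; Psmd13 was higher at 1.14 ± 0.13 and Psma4 lower at -1.33 ± 0.11. Among splicing factors 7 of 37 measured members rose, 17 fell and 13 did not pass, with a median log2 difference of -0.39, with Snrnp70 higher at 1.01 ± 0.13 and Hnrnph2 lower at -1.68 ± 0.16. Of genes under NRF2, the oxidant response factor, 3 of 24 measured members rose, 13 fell and 8 did not pass, with a median log2 difference of -0.48, and the list shares Fth1 and Ftl1 with the iron list. G6pdx, the entry enzyme of the pentose phosphate path, fell by 1.74 and Tkt rose by 0.66 on the log2 scale. Of glycolysis genes, 5 of 27 measured members rose, 11 fell and 11 did not pass, with a median log2 difference of -0.07. Pgam1 was lower at -1.20 ± 0.07 and Pfkl was higher at 0.78 ± 0.16. Of 7 measured replicative histone genes 3 fell, Hist1h2bc, Hist1h2bf and Hist1h4i; these mRNAs mostly lack a poly(A) tail, so mRNA libraries may not count them fully.

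**Figure D4:**
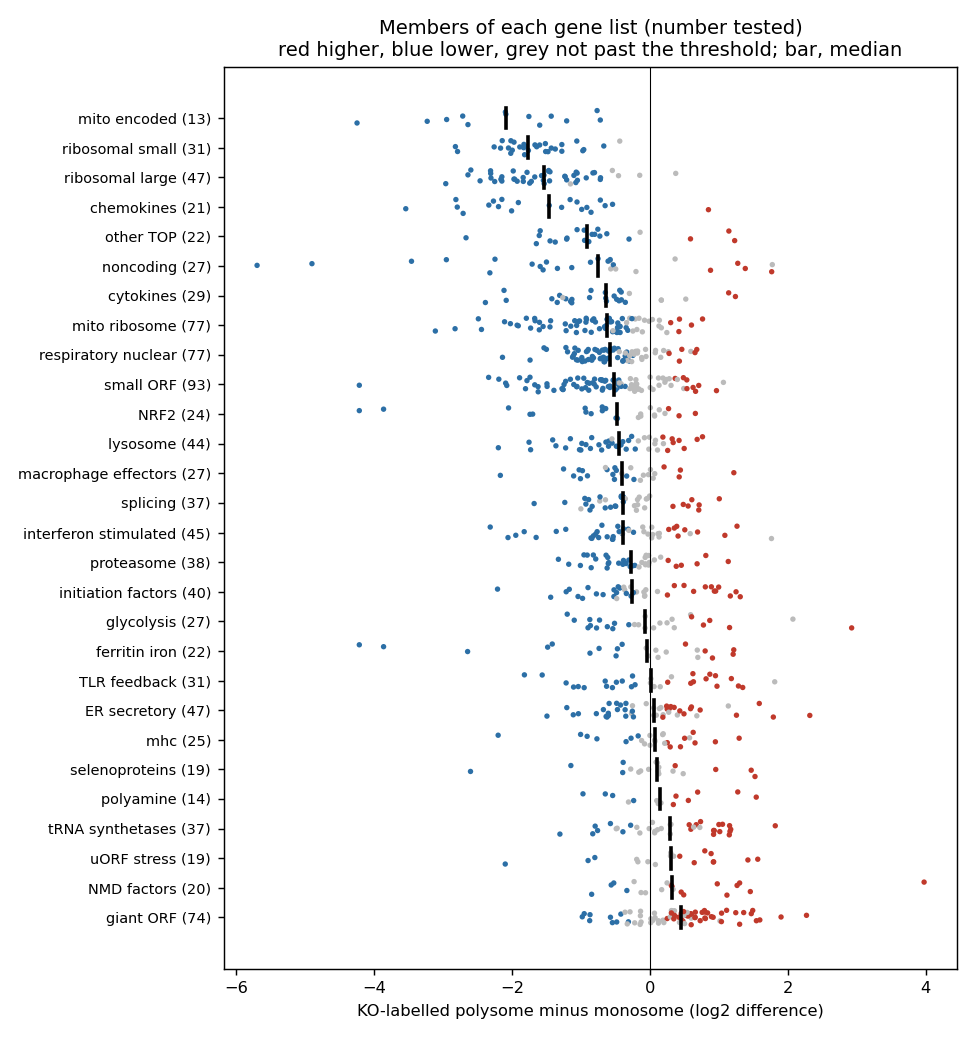
Each point is a measured member of a gene list, with its log2 difference, KO-labelled polysome minus monosome, along the axis and the number tested in brackets after the list's name. Red members were higher, blue lower and grey not past the adjusted p of 0.05, and the black bar is the median, from -2.09 for mitochondrially encoded mRNAs to 0.45 for giant reading frames.

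Lists of translation and RNA surveillance factors differed in their counts, to be read against the 28.6% higher and 29.5% lower among all tested genes. Of nonsense-mediated decay factors, 10 of 20 measured members rose, 4 fell and 6 did not pass, with a median log2 difference of 0.31. Smg5, a decay factor that recruits enzymes to UPF1, had 60, 66 and 52.5 CPM in polysome libraries, against 3.44, 3.52 and 4.35 CPM in monosome libraries, with no overlap and 15.7-fold more in polysomes (log2 difference 3.98 ± 0.16 (SE), adjusted p = 3.02e-11). Smg8, a regulator of the kinase that phosphorylates UPF1, had 17.8, 15.3 and 17.1 CPM in polysome libraries, against 9.12, 7.95 and 8.45 CPM in monosome libraries (log2 difference 0.98 ± 0.12 (SE), adjusted p = 5.66e-06). Magoh, Magohb, Rnps1 and Gspt1 fell. Of aminoacyl-tRNA synthetases, 15 of 37 measured members rose, 7 fell and 15 did not pass, with a median log2 difference of 0.30. Hars2, the mitochondrial histidyl enzyme, had 9.61, 10.2 and 9.24 CPM in polysome libraries, against 2.91, 3.39 and 1.92 CPM in monosome libraries (log2 difference 1.82 ± 0.17 (SE), adjusted p = 2.86e-07), Vars was higher at 1.16 ± 0.11, and Dars was lower at -1.31 ± 0.08. Of initiation factors, 12 of 40 measured members rose, 17 fell and 11 did not pass, with a median log2 difference of -0.26, which puts the share that rose (30.0%) near that of all genes. Eif4g1, the scaffold of the cap-binding complex, had 96.1, 89.8 and 91.6 CPM in polysome libraries, against 47.6, 46 and 45.5 CPM in monosome libraries (log2 difference 0.997 ± 0.06 (SE), adjusted p = 2.07e-09), Eif4h had 334, 329 and 307 CPM in polysome libraries, against 119, 137 and 135 CPM in monosome libraries (log2 difference 1.31 ± 0.07 (SE), adjusted p = 4.19e-10), and Eif2b5, a guanine nucleotide exchange subunit, was higher at 1.25 ± 0.11. Set against KO-labelled total RNA, Eif4g1 was lower in polysomes (-0.86 ± 0.06) and in monosomes (-1.86 ± 0.06). Eif2s1, the eIF2α subunit phosphorylated under stress, was lower in polysomes than in monosomes at -1.44 ± 0.10. Of secretory pathway genes, 15 of 47 measured members rose, 19 fell and 13 did not pass, with a median log2 difference of 0.05, again with a share that rose (31.9%) near that of all genes. Creld2 and Sdf2l1 were higher at 1.59 ± 0.17 and 1.25 ± 0.15, and Srp19, a signal recognition particle protein, was lower at -1.21 ± 0.11.

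Upstream open reading frames are short frames ahead of the main one that many stress-response mRNAs carry. Of the list of genes with them, 8 of 19 measured members rose, 3 fell and 8 did not pass, with a median log2 difference of 0.31. Ppp1r15b, the constitutive eIF2α phosphatase subunit, had 299.6, 271 and 304 CPM in polysome libraries, against 116, 93.4 and 117 CPM in monosome libraries (log2 difference 1.42 ± 0.09 (SE), adjusted p = 4.24e-09). Cebpb, a myeloid transcription factor, was higher at 0.89 ± 0.14. Ddit3, the stress transcription factor CHOP, had 88.8, 93.7 and 81.9 CPM in polysome libraries, against 371, 374 and 388 CPM in monosome libraries (log2 difference -2.10 ± 0.10 (SE), adjusted p = 1.06e-10), and the other 2 that fell were Mdm2 and Tmem184c. Of selenoproteins, which recode a stop codon, 4 of 19 measured members rose, 4 fell and 11 did not pass, with a median log2 difference of 0.11, so each direction held 21.1% of members, under the 28.6% and 29.5% of all tested genes. Dio2, a thyroid hormone deiodinase, had 79.8, 85.2 and 87.8 CPM in polysome libraries, against 35.1, 26.1 and 30.1 CPM in monosome libraries (log2 difference 1.47 ± 0.12 (SE), adjusted p = 4.83e-08) and Selk had 53.5, 51.6 and 51.7 CPM in polysome libraries, against 293, 327 and 333 CPM in monosome libraries (log2 difference -2.60 ± 0.08 (SE), adjusted p = 4.46e-12). Of polyamine genes, 6 rose, 4 fell and 4 did not pass of 14. Atp13a2, a lysosomal polyamine exporter, was higher at 1.54 ± 0.16. Oaz1, the antizyme made by ribosome frameshifting, had 119.6, 114 and 94.5 CPM in polysome libraries, against 77.2, 73.7 and 71.8 CPM in monosome libraries (log2 difference 0.56 ± 0.11 (SE), adjusted p = 4.80e-04), and Azin1, its inhibitor, was lower at -0.97 ± 0.25.

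The largest single differences on the polysome side had few monosome reads. Gm38394 overlaps Zbed6 and Zc3h11a, had 54.4, 58.6 and 49 CPM in polysomes and no read in any monosome library, and so was at least 413-fold higher against a floor of 3 counts over the group. Cpne1 had 10.2, 22.4 and 12.7 CPM in polysome libraries, against 0.132, 0.13 and 0.256 CPM in monosome libraries and shares its position with Rbm12. Atg9a, a lipid scramblase of autophagy, had 22.6, 9.17 and 18.6 CPM in polysome libraries, against 1.06, 0.651 and 1.02 CPM in monosome libraries (log2 difference 4.20 ± 0.63 (SE), adjusted p = 3.58e-05). Bap1, a deubiquitinase, had 71.2, 26 and 83.7 CPM in polysome libraries, against 4.1, 4.04 and 6.15 CPM in monosome libraries (log2 difference 3.66 ± 0.51 (SE), adjusted p = 1.68e-05). Mier1 and Fbxo11 were higher at 3.88 ± 0.71 and 3.18 ± 0.58, and 4930404N11Rik at 2.84 ± 0.29. In WT monosome libraries Mier1 was uneven at 40.2, 3.95 and 2.43 CPM, and Fbxo11 at 30.2, 27.8 and 1.86 CPM. Several of the polysome-side calls rest on uneven KO-labelled libraries. Gas2l3 had 40.5, 0.62 and 41.6 CPM in polysome libraries, against 0.132, 0.391 and 0.384 CPM in monosome libraries, so polysome replicate 2 was near the monosome libraries, and Ptges3 had 2.58, 50.3 and 37 CPM in polysome libraries, against 0.661, 1.04 and 0.768 CPM in monosome libraries, with polysome replicate 1 low. Leaving out 1 library put Ptges3 at an adjusted p of 0.061 to 0.0724 in 4 of 6 cases. Rhbdf2 (66.7, 213 and 212 CPM in polysome libraries, against 39.6, 10.7 and 11.7 CPM in monosome libraries) had replicate 1 apart in both fractions, and Carm1 (18.3, 18.3 and 5.44 CPM in polysome libraries, against 1.32, 2.87 and 1.15 CPM in monosome libraries) had a low polysome replicate 3. On the monosome side, Gm15832 had 7.03, 8.55 and 9.39 CPM in polysome libraries, against 976, 10.7 and 9.86 CPM in monosome libraries, so monosome replicate 1 stood far above the rest, and without that library its log2 difference was -0.30 (adjusted p = 0.849). Ccdc180, Evi2b, Nupr1, Prl2c2 and 2300009A05Rik were steadier, with Nupr1, a stress-induced chromatin protein, at 129, 148 and 132 CPM in polysome libraries, against 1417, 1688 and 1889.6 CPM in monosome libraries (log2 difference -3.61 ± 0.14 (SE), adjusted p = 3.11e-11).

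KO-labelled and WT cells gave similar fraction profiles, and few genes differed between them. In WT libraries 7059 genes (55.2%) differed by fraction; 6147 were called in both, which is 82.8% of the KO-labelled calls and 87.1% of the WT calls, and 6145 of these had one sign. The difference of the log2 ratio, KO-labelled minus WT, passed the threshold in 7 of 12782 genes (0.0548%), of which 6 were higher and Slc7a7 lower. An unadjusted p under 0.05 was found in 678, close to the share that this cut-off passes when no gene differs. DESeq2 called 27, and leaving out single libraries gave 6 to 19, with 19 called without KO-labelled monosome replicate 3 or without WT monosome replicate 1. Hk1, hexokinase 1 (GRCm38, chr10:62268855-62379908, minus strand), had 94, 87.4 and 91.7 CPM in polysome libraries, against 12.8, 10.7 and 12.4 CPM in monosome libraries in KO-labelled cells. WT cells had 109, 107 and 109 CPM in polysomes and 84, 85.2 and 85.4 CPM in monosomes. Monosome levels were low in KO-labelled cells alone, and the difference was 2.57 ± 0.11 (SE), adjusted p = 1.29e-09. Aarsd1, an editing-domain protein, had 6.87, 8.31 and 7.49 CPM in polysome libraries, against 0.264, 0.13 and 0.128 CPM in monosome libraries in KO-labelled cells. WT cells had 5.96, 6.68 and 6.84 CPM in polysomes and 6.07, 5.27 and 5.72 CPM in monosomes, and the difference was 5.18 ± 0.28 (SE), adjusted p = 4.35e-08. KO-labelled monosome libraries held very few Aarsd1 counts (given below), so this SE may understate the error. Phf3 (2.10 ± 0.19 (SE), adjusted p = 3.29e-05), Trip4 (2.003 ± 0.26 (SE), adjusted p = 0.00301), Kpna6 (1.11 ± 0.16 (SE), adjusted p = 0.0118) and Dgcr2 (4.88 ± 0.66 (SE), adjusted p = 0.00492) also had lower monosome levels in KO-labelled cells. Slc7a7, an amino acid transporter subunit, was opposite, with 15.8, 14.4 and 13.5 CPM in polysome libraries, against 23.6, 20.2 and 22 CPM in monosome libraries in KO-labelled cells. WT cells had 19.8, 16.4 and 16.5 CPM in polysomes and 7.88, 13 and 9.01 CPM in monosomes, and the difference was -1.40 ± 0.23 (SE), adjusted p = 0.0327. Slc7a7 lost its call without any of 7 single libraries of 12 (adjusted p = 0.0526 to 0.129), and Kpna6 without WT polysome replicate 2 (adjusted p = 0.0505). A fit on the polysome and monosome libraries alone did not call Kpna6 (adjusted p = 0.102), Slc7a7 (adjusted p = 0.0785) or Dgcr2 (adjusted p = 0.0771). Il6 had a log2 ratio of -1.34 ± 0.15 in KO-labelled cells and -2.50 ± 0.16 in WT cells, a difference of 1.15 ± 0.21 (SE), adjusted p = 0.116, which did not pass. Leaving out KO-labelled polysome replicate 1 put it at an adjusted p of 0.00131, and DESeq2 gave 0.00124.

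**Figure D5:**
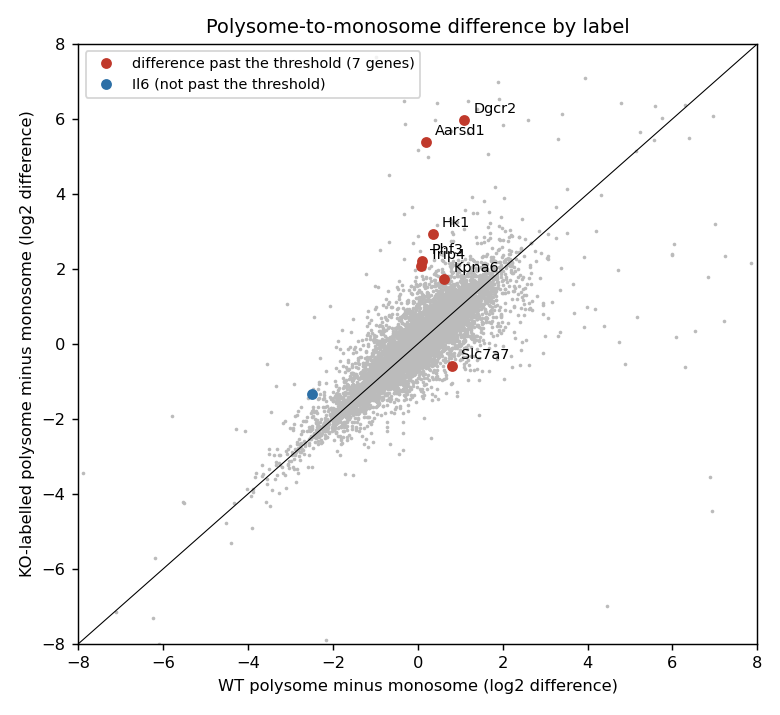
Each point is a tested gene, with the WT log2 difference, polysome minus monosome, across and the KO-labelled one up, and the line marks equality. The 7 red genes passed the test of the difference between the labels and Il6, in blue, did not; points beyond 8 on either axis are not drawn.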

How the data were processed

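mRNA was measured by RNA-seq in 18 libraries, 3 for each genotype label and fraction. The authors deposited gene counts per library, with FPKM beside them; FPKM values were deposited by the authors but not tested. Per the submitters' processing notes, fastp 0.23.2, HISAT2 2.0.4 and StringTie 1.3.0 were used; the build is not given in the sources used here, and 80.9% of matched genes have their GENCODE M21 (GRCm38) position. Genes were filtered with filterByExpr, scaled by TMM and fitted with edgeR 4.0.16 (R 4.3.3, limma 3.58.1) in a quasi-likelihood model with 6 group means; adjustment was Benjamini-Hochberg over 12782 genes, threshold 0.05. Each SE is the size of the log2 difference divided by the square root of its quasi-likelihood F value. It was not estimated separately and may be too small where counts are few. DESeq2 1.42.0 and voom were alternatives. Coding length came from GENCODE M21, in place of RefSeq protein length. The fit was tested on simulated data. Named genes were Mkrn2, Mkrn1, Il6, the ferritins, the largest non-overlapping calls, the smallest p in each list and the genes whose ratio differed between labels. Members of a list named because 6 or fewer moved one way were named after their values were seen. Members and lists were chosen with earlier results of these data known. Values after ± are SE beside log2 differences and SD beside shares of counts. A few genes are not reported here.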

Additional observations from a re-analysis of the deposited data

Results flagged for a closer look

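The polysome-to-monosome log2 ratio differed between KO-labelled and WT libraries by edgeR's test of the interaction for 7 genes. The difference, KO-labelled minus WT, was 5.18 for Aarsd1, 4.88 for Dgcr2, 2.57 for Hk1, 2.10 for Phf3, 2.003 for Trip4, 1.11 for Kpna6 and -1.40 for Slc7a7. Dgcr2 had counts of 0, 0 and 15 in KO-labelled monosome libraries and Aarsd1 had 2, 1 and 1. Several of these genes overlap others on the same strand (Dgcr2 with Gm20518, Aarsd1 with Gm27029) and the part of read assignment was not tested.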

How the results depend on the processing

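Depth limits genes with few monosome reads, and with 3 libraries a group a single library can decide a call. Of 119 named genes, 111 had a value under all 17 settings tried, and 92 of these kept their direction and side of the threshold. The other 8, tested under fewer settings because a filter or tool left them out, are not counted. Scaling by library size alone gave 9237 higher and 786 lower genes, and reversed Mkrn1 (0.29), Mdm2 (0.12), Tnf (0.16), Azin1 (0.041), Magoh (0.17), Itpr2 (0.030) and Slc7a7 (0.42). It also ended the calls of Il6 (-0.33, adjusted p = 0.0565) and Srp19 (-0.19, adjusted p = 0.124). A test against a fold of 1.5 left 3437 genes, 1583 higher and 1854 lower. Without single libraries, KO-labelled calls ran from 6883 to 7012, 3323 to 3407 higher and 3495 to 3605 lower, and the length gap from 1.04 to 1.17. For the difference between labels DESeq2 called 27 genes, 16 higher and 11 lower, the groups compared alone gave 0 lower, and leaving out single libraries gave 6 to 19 calls, 5 to 15 higher and 0 to 10 lower; the most came without KO-labelled or WT monosome libraries (KO-labelled replicates 1, 2 and 3 gave 12, 16 and 19; WT replicates 1 and 2 gave 19 and 18). The cause was not tested. Voom did not call Gas2l3, Ptges3, Gm15832 or the Dgcr2 and Slc7a7 differences. Deviations of same-numbered polysome and monosome libraries were nearly uncorrelated (-0.00191, -0.00661 and 0.00677). With 3 libraries a group, this cannot tell whether same-numbered fractions came from the same lysate, which the labels do not say. With a replicate block, 7417 genes were called in KO-labelled cells, and 5 in the difference, with 0 lower. Under that block the differences of Dgcr2 (adjusted p = 0.0732) and Slc7a7 (0.0821) and the fraction difference of Gm15832 (0.171) did not pass.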
